A study of Mus musculus with 2 samples.

Results

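Pou5f1, Sox2 and Nanog, the core transcription factors of pluripotency, were followed in male germ cells of the fetal mouse testis at E13.5 and at E12.5. They were taken by gene name from both deposited count tables, and all 3 were listed in each, out of 17244 genes listed in at least 1 table. The E13.5 group was 1 library of male germ cells from CD1 embryos, an outbred stock, and the E12.5 group was 1 library of male germ cells from CD1 embryos a day younger. Both were sorted by FACS for green fluorescence from an Oct4GFP reporter and prepared with the v2 chemistry of 10x, which counts the ends of transcripts in single cells by molecular identifier (UMI). How many embryos were pooled in each library is not stated in the labels. Each stage is 1 library, so that nothing was replicated or tested, a difference of stage cannot be told apart from a difference of library, and every interval below is a 95% interval of counting error only.

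Pou5f1 encodes OCT4, a POU domain factor that binds octamer sequences, and Sox2 encodes an HMG box factor that binds beside OCT4 on paired octamer and SOX sequences in the enhancers and promoters of many genes of embryonic stem cells. Nanog encodes a homeodomain factor that stabilises that state, and the 3 factors bind the regulatory regions of each other's genes. Primordial germ cells express all of them. Pou5f1 is also required for the survival of primordial germ cells.

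The promoter windows of the 3 genes show where the letters of these paired sites lie relative to a RefSeq start of transcription, 250 bases before to 50 bases after it. They are RefSeq sequences of GRCm38.p6, all on the plus strand, at chr17:35505782-35506081 for Pou5f1, chr3:34649745-34650044 for Sox2 and chr6:122707239-122707538 for Nanog. Capitals mark every match, on either strand, to the octamer core ATGCAAA, the SOX core ACAATG or the nuclear receptor core AGGTCA.
Pou5f1: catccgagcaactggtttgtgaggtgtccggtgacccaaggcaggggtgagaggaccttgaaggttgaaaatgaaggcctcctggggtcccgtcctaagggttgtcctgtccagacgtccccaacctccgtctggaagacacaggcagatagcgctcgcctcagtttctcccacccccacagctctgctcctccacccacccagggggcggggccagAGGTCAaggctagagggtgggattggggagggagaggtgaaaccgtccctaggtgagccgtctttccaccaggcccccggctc
Sox2: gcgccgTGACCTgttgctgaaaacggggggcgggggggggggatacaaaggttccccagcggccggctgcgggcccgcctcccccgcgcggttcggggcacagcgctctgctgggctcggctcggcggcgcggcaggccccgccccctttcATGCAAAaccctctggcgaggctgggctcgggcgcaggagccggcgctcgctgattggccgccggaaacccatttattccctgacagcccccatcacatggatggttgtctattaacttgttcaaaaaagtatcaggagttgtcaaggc
Nanog: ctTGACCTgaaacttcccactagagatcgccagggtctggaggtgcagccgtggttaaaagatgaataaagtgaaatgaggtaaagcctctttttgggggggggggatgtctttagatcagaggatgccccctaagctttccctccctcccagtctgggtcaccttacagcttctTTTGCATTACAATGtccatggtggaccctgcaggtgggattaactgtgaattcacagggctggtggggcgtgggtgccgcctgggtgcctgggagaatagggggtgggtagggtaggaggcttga
In the Nanog window the octamer core, read on the minus strand, and the SOX core stood side by side from base -75. The run TTTGCATNACAATG, which holds both of them, was found in 2 of 32851 promoter windows, both of them at annotated starts of Nanog. These 2 windows overlap and hold the same single site. The Sox2 window held the octamer core at base -99 and no SOX core, and the Pou5f1 window held neither. Bases are counted from the RefSeq start. The Sox2 window ends before the start of Sox2 in the GENCODE annotation, at 34650405, so its matches lie further upstream of that start. The window of another annotated start of Pou5f1, not printed, held a SOX core at base -158. Each printed window held 1 nuclear receptor core, at base -33 for Pou5f1, -244 for Sox2 and -248 for Nanog. Over the 32851 windows, 4.63% held the octamer core, 12.6% the SOX core and 16.3% the nuclear receptor core. A match describes the letters only, and letters absent from these windows say nothing about binding elsewhere.

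The E13.5 table held 2992 barcodes and 59842242 UMIs, and the E12.5 table held 2847 barcodes and 60383440 UMIs. Barcodes needed 500 genes and a mitochondrial share below 10%, and of those 2554 of 2670 were germ-like at E13.5 and 2502 of 2621 at E12.5, with medians of 21837 and 23474 UMIs per cell. All 10 germ markers behind that name, which did not include the 3 factors, were at 10 CPM or more in both libraries, and each library had its own germ-like clusters: clusters 2, 3, 4 and 5 at E13.5, and clusters 0, 1 and 8 at E12.5. In the germ-like cells, summed markers of Sertoli cells were at 12.4 CPM at E13.5 and 12.3 CPM at E12.5 (UMIs per 1e6 UMIs of the summed cells), with none of 8 at 10 CPM in either library, those of mesonephric cells at 83.9 and 83.3 CPM, those of endothelial cells at 46.9 and 112 CPM, those of red blood cells at 23.1 and 0.285 CPM, and those of surface epithelium at 10.6 and 34.2 CPM. Some of these sums rest on few genes. Of the listed mesonephric markers 1 of 4 reached 10 CPM in each library. Of 6 listed endothelial markers 2 did at E13.5 and 3 at E12.5. For red blood cells it was 1 of 7 at E13.5 and 0 of 3 at E12.5, and for surface epithelium 0 of 5 and 1 of 5. Whether the sums come from other cells, and the part of such cells in the results, was not tested. The tables shared 24 barcode sequences, 9 of them germ-like in both.

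Pou5f1 was the most abundant of the 3 factors and the one with the higher level at E13.5. Germ-like cells held 41040 Pou5f1 UMIs, or 700.4 CPM (exact Poisson interval 694 to 707), in the E13.5 library and 29860 UMIs, or 500.1 CPM (494 to 506), in the E12.5 library. The level was 1.40-fold higher at E13.5 (exact conditional binomial interval 1.38 to 1.42), a log2 ratio of 0.49. Among the 7308 genes that reached 10 CPM in at least 1 library, 88.7% had a lower ratio than Pou5f1, and the median log2 ratio of those genes was -0.022. The sort selected cells by a reporter of this gene, so that the presence of Pou5f1 in the cells is set in part by the gate. The labels do not say whether the gate was placed alike in both sorts, and its part in the difference was not tested.

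Sox2 was lower at E13.5, by a smaller factor. It held 6032 UMIs, or 103 CPM (100 to 106), at E13.5 and 7363 UMIs, or 123 CPM (121 to 126), at E12.5. The level at E13.5 was 0.835 times that at E12.5 (0.807 to 0.864), a log2 ratio of -0.26. Of the 7308 genes, 25.8% had a lower ratio.

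Nanog was the least abundant and had the lowest ratio of the 3. It held 1457 UMIs, or 24.9 CPM (23.6 to 26.2), at E13.5 and 1981 UMIs, or 33.2 CPM (31.7 to 34.7), at E12.5. The level at E13.5 was 0.749 times that at E12.5 (0.700 to 0.802), a log2 ratio of -0.42, and 15.9% of the 7308 genes had a lower ratio. None of the 3 factors was as much as 1.5-fold apart between the libraries, a range that held 81.5% of the 7308 genes. Nanog has processed pseudogenes in the mouse, and the labels do not say how reads that match several copies were counted. The antisense gene Gm19553 overlaps exons of Pou5f1, and it held 42 UMIs at E13.5 and 56 UMIs at E12.5. In the GENCODE annotation of GRCm38 all 3 genes lie on the plus strand, Pou5f1 on chromosome 17 (35506018 to 35510772), Sox2 on chromosome 3 (34650405 to 34652461) and Nanog on chromosome 6 (122707489 to 122714633).

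**Figure D1:**
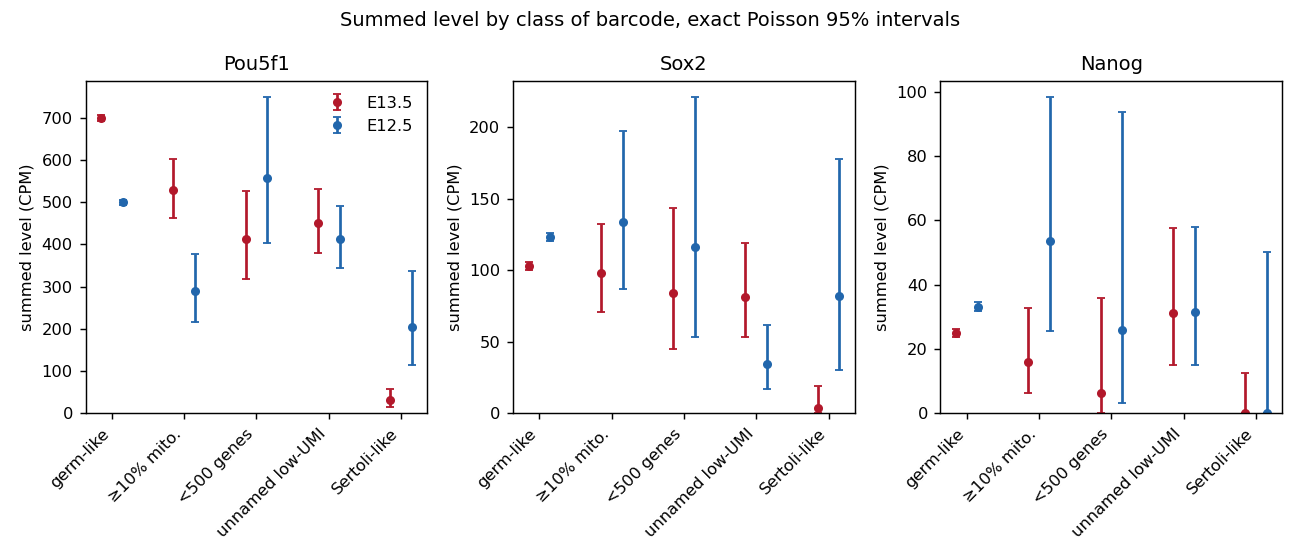
Summed level in CPM of Pou5f1, Sox2 and Nanog in 5 classes of barcode, E13.5 in red and E12.5 in blue, with exact Poisson 95% intervals. In germ-like cells Pou5f1 was higher at E13.5 (700.4 and 500.1 CPM) and Sox2 and Nanog were lower, while the intervals of the small classes were wide.

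Levels outside the germ-like class were read as well. The Sertoli-like barcodes, 25 at E13.5 and 4 at E12.5, are supporting cells that should lack all 3 factors. At E13.5 they held 9 Pou5f1 UMIs (30.7 CPM), 1 Sox2 UMI (3.41 CPM) and no Nanog UMI. At E12.5 they held 15 Pou5f1 UMIs (204 CPM), 6 Sox2 UMIs (81.8 CPM) and no Nanog UMI, and the UMIs of each gene were all in 1 of the 4 barcodes. A count of 0 for Nanog allows up to 12.6 CPM in the 25 E13.5 barcodes, below the E13.5 germ-like level of 24.9 CPM. In the 4 E12.5 barcodes it allows up to 50.3 CPM, above the E12.5 germ-like level of 33.2 CPM. For E12.5 this check therefore cannot place background below the germ-like level. Over all 29 barcodes the limit for Nanog is 10.1 CPM, but 25 of them are from E13.5.

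The unnamed low-UMI cluster, 90 barcodes at E13.5 and 112 at E12.5, also held the factors. Over both libraries together its leading genes were those of haemoglobin. Only 3 of the 7 red blood cell markers were listed at E12.5, so this ranking does not describe its E12.5 barcodes. In this cluster Pou5f1 was at 451 CPM at E13.5 and 413 CPM at E12.5. Sox2 was at 81.5 and 34.7 CPM there, and Nanog at 31.3 and 31.5 CPM, each from 144 UMIs or fewer. Pou5f1 in both libraries and Sox2 at E12.5 were below the germ-like levels. Barcodes with 10% or more mitochondrial UMIs held Pou5f1 at 529 CPM at E13.5 and 289 CPM at E12.5. These classes were left out of the levels above, and with every barcode kept no ratio left the interval of its main value.

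The share of cells with a UMI was compared after every cell was thinned to 14500 UMIs, which kept 2323 cells at E13.5 (231 shallower cells left out) and 2326 cells at E12.5 (176 left out). Pou5f1 was detected in 2323 of 2323 cells at E13.5 and in 2323 of 2326 at E12.5. Sox2 was detected in 74.5% of cells at E13.5 (exact binomial interval 72.6 to 76.2%) and in 78.8% at E12.5 (77.0 to 80.4%). Nanog was detected in 29.1% at E13.5 (27.2 to 31.0%) and in 35.4% at E12.5 (33.5 to 37.4%). Without thinning the shares of cells were 99.8% and 99.6% for Pou5f1, 84.5% and 89.0% for Sox2, and 40.8% and 50.4% for Nanog, at E13.5 and E12.5 in each pair. Shares and summed levels had the same order in each gene, though at a fixed depth a share largely follows the mean level. Pou5f1 was found in nearly every cell, and the intervals of its shares in the libraries overlapped.

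Free RNA was set beside these shares at 2000 UMIs per cell, the depth that the 29 Sertoli-like barcodes reach. At that depth a Pou5f1 UMI was seen in 74.4% of germ-like cells at E13.5, in 62.5% at E12.5 and in 1 of 29 Sertoli-like barcodes (3.45%, 0.0873 to 17.8%). A Sox2 UMI was seen in 18.8% and 21.2% of germ-like cells at E13.5 and E12.5, and in 0 of 29 Sertoli-like barcodes, which allows up to 11.9%. A Nanog UMI was seen in 4.94% and 6.20% of germ-like cells, below the 11.9% that 0 of 29 allows, so that the Nanog share could not be separated from background by this check. Median depths before thinning were 11418 UMIs in Sertoli-like barcodes and 21837 and 23474 UMIs in germ-like cells at E13.5 and E12.5.

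Pou5f1 counts were higher at E13.5 at the low end, the middle and the high end of the cells. Thinned cells held a median of 10 Pou5f1 UMIs at E13.5 (10th to 90th percentile 6 to 15, range 1 to 26) and of 7 at E12.5 (4 to 11, range 0 to 20). Sox2 averaged 1.49 UMIs per cell at E13.5, with no more than 8 in a cell, and 1.78 at E12.5, with no more than 11. Nanog averaged 0.353 UMIs per cell at E13.5 and 0.470 at E12.5, with no more than 4 UMIs in a cell at E13.5 and no more than 5 at E12.5. At least 2 Nanog UMIs were found in 5.38% of cells at E13.5 and in 8.99% at E12.5. For Nanog, fewer cells with the transcript and less transcript per cell cannot be told apart at this depth.

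**Figure D2:**
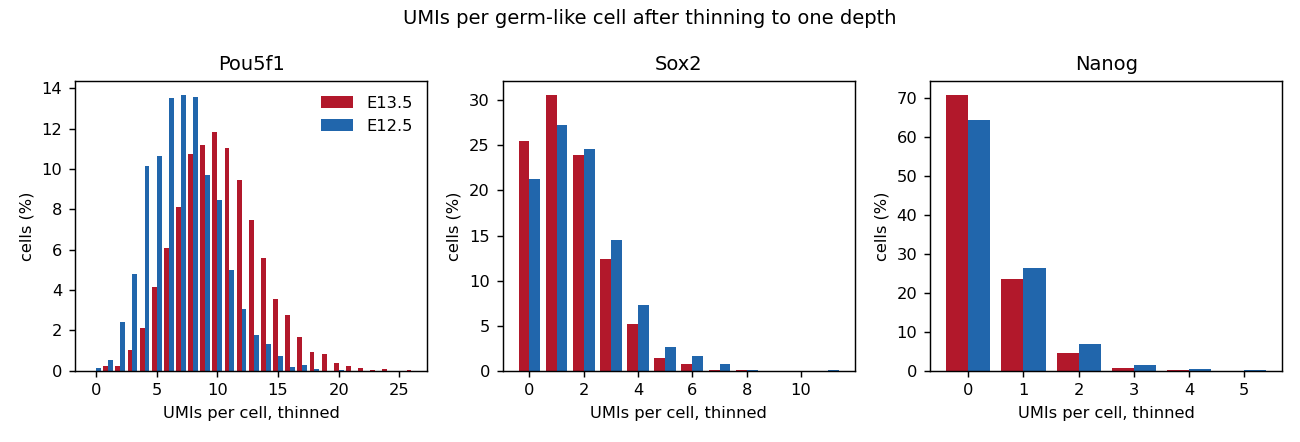
Percent of germ-like cells (vertical axis) by number of UMIs of each gene after thinning to 14500 UMIs (horizontal axis), E13.5 in red (2323 cells) and E12.5 in blue (2326 cells). The Pou5f1 distribution is centred on 10 UMIs at E13.5 and 7 at E12.5, and most cells are at 0 for Nanog in both libraries.

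The spread from cell to cell was a little wider than counting alone gives. The Fano factor, the variance over the mean and 1 for Poisson counts, was 1.19 at E13.5 and 1.14 at E12.5 for Pou5f1, 1.14 and 1.27 for Sox2, and 1.05 and 1.17 for Nanog. Its median over all genes at 10 CPM or more was 1.05 at E13.5 (6837 genes) and 1.04 at E12.5 (6879 genes). Cells without a Sox2 UMI made up 25.5% at E13.5, where a Poisson count with the same mean gives 22.4%, and 21.2% at E12.5, where it gives 16.8%. For Nanog the share at 0 was 70.9% against a Poisson share of 70.3% at E13.5, and 64.6% against 62.5% at E12.5.

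Sox2 and Nanog were found together about as often as their single shares give. Pou5f1 was detected in nearly every cell, so its joint shares with the other factors match the products by construction. All 3 were detected in 515 cells at E13.5 (22.2%, where the product of the 3 shares is 21.6%) and in 643 cells at E12.5 (27.6%, product 27.9%). Pou5f1 and Sox2 without Nanog was the most frequent combination, in 1215 cells at E13.5 and 1186 at E12.5. Pou5f1 alone was seen in 433 and 314 cells, and Pou5f1 with Nanog but no Sox2 in 160 and 180 cells, at E13.5 and E12.5 in each pair. Nanog was detected in 29.8% of cells with and 27.0% of cells without a Sox2 UMI at E13.5, and in 35.2% with and 36.4% without at E12.5, and these intervals overlapped.

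Pairwise relations across cells were near 0. Pearson's r of log1p thinned counts, over 2323 cells at E13.5 and 2326 at E12.5 that share library, depth and free RNA, was -0.029 and -0.022 for Pou5f1 and Sox2, 0.031 and 0.021 for Pou5f1 and Nanog, and 0.041 and 0.036 for Sox2 and Nanog. With another random seed for thinning the first of these was 0.017 at E13.5, and in counts this sparse no weak r is a finding. In cells with 3 or more Sox2 UMIs, Nanog was at 1.23 times its level in cells with none at E13.5 (0.997 to 1.52) and at 1.15 times at E12.5 (0.975 to 1.37).

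The factors differed between cells with high and low sums of cell cycle genes. G2/M genes are those of late cell cycle and mitosis, and their summed thinned UMIs ranked the cells within each library. Nanog was at 32.6 CPM in the 25% of cells with the highest G2/M sum and 19.4 CPM in the 25% with the lowest at E13.5 (590 cells each), a ratio of 1.68 (1.38 to 2.05). At E12.5 it was at 45.1 CPM in the highest 25% (590 cells) and 20.9 CPM in the lowest 25% (613 cells, with ties), a ratio of 2.16 (1.81 to 2.58). Nanog was therefore higher in the cells with most G2/M transcripts in both libraries.

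Sox2 had the same direction with a smaller size, and Pou5f1 the other direction. The ratio of the highest to the lowest 25% by G2/M sum was 1.23 for Sox2 at E13.5 (1.12 to 1.35) and 1.18 at E12.5 (1.08 to 1.28). For Pou5f1 it was 0.908 at E13.5 (0.876 to 0.942) and 0.913 at E12.5 (0.875 to 0.952). Such a set, cut from a sum, is a range of cells, not a cell type.

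Along the S phase sum, which counts genes of DNA replication, Nanog ran in opposite directions in the libraries. At E13.5 it was at 25.1 CPM in the highest 25% by S phase sum and 16.6 CPM in the lowest 25%, a ratio of 1.52 (1.22 to 1.88). At E12.5 it was at 26.3 CPM in the highest 25% and 40.5 CPM in the lowest 25%, a ratio of 0.650 (0.549 to 0.768). The difference between the libraries was not tested. Sox2 had ratios of 0.999 (0.908 to 1.10) and 0.817 (0.750 to 0.889), and Pou5f1 of 1.06 (1.02 to 1.10) and 1.05 (1.01 to 1.10), at E13.5 and E12.5 in each pair.

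The clusters of germ-like cells showed the same order. None of the 3 factors was among the 2000 variable genes that built the clusters, and the values are a description. At E13.5 cluster 2, in which Nanos2, an RNA-binding protein of the male germ cell pathway, was at 57.6 CPM and both cycle sums were low, held Nanog at 16.8 CPM in thinned cells (14.4 to 19.4). The other E13.5 clusters held 29.4 CPM in cluster 3, 23.7 CPM in cluster 4, which had the highest S phase sum, and 31.0 CPM in cluster 5, which had the highest G2/M sum. At E12.5 Nanog was at 43.8 CPM (40.2 to 47.7) in cluster 1, the cluster with the highest G2/M sum, and at 26.0 CPM (23.9 to 28.3) in cluster 0. The small cluster 8, led by p53 target genes such as Plk2, held 6 Nanog UMIs in 22 cells.

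Pou5f1 in the same clusters stayed between 652 and 729 CPM at E13.5 and between 484 and 509 CPM at E12.5, so that no cluster of the E13.5 library was as low as a cluster of the E12.5 library. Sox2 lay between 96.7 and 117 CPM at E13.5 and between 117 and 133 CPM at E12.5. For Nanog the clusters of the libraries overlapped.

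**Figure D3:**
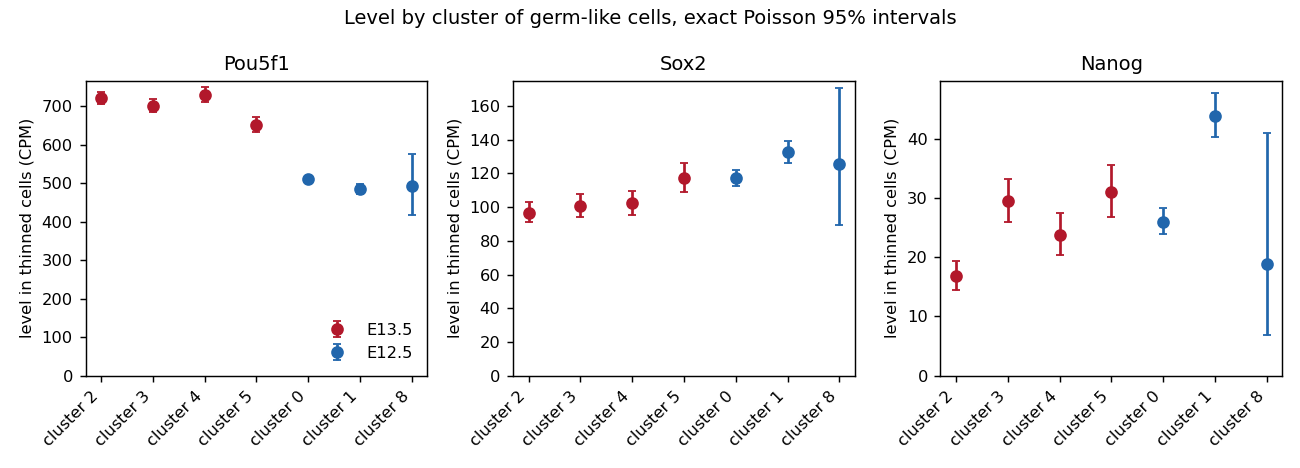
Level in CPM of each gene in thinned germ-like cells of 4 clusters at E13.5 (red) and 3 clusters at E12.5 (blue), with exact Poisson 95% intervals. Pou5f1 separates the libraries in every cluster, while Nanog is lowest in cluster 2 at E13.5 (16.8 CPM) and highest in cluster 1 at E12.5 (43.8 CPM).

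Whether the stage difference held at a like G2/M sum was read from 4 ranges of that sum, each with about 25% of the thinned cells of both libraries together. A like G2/M sum need not be a like position in the cycle. At E13.5 the median S phase share was 0.119% in cluster 2 (median G2/M share 0.200%) and 0.389% in cluster 4 (0.382%). At E12.5 it was 0.389% in cluster 0 (0.403%) and 0.379% in the small cluster 8 (0.305%). In the lowest range, with 854 cells at E13.5 and 317 at E12.5, Nanog was at 18.6 CPM at E13.5 and 19.1 CPM at E12.5, a ratio of 0.970 (0.756 to 1.25). From the second to the highest range the ratios were 0.974 (0.795 to 1.19), 0.754 (0.626 to 0.906) and 0.705 (0.600 to 0.828), the last from 31.8 CPM at E13.5 and 45.1 CPM at E12.5. The lower Nanog of the E13.5 library was thus seen in the upper 2 ranges and was not detectable at this depth in the lower 2. The ranges were set after earlier values had been seen, and differences among the 4 ratios were not tested.

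Pou5f1 was higher at E13.5 in each of these ranges, by 1.37-fold to 1.41-fold. Sox2 was lower in each, with ratios of 0.805 to 0.898. In 4 such ranges of the S phase sum, from low to high, Nanog had ratios of 0.606 (0.458 to 0.812), 0.714 (0.606 to 0.840), 0.772 (0.619 to 0.955) and 1.04 (0.834 to 1.28). The lowest of these ranges held 1075 cells at E13.5 and only 124 at E12.5.

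Detection of Nanos2 and of Sycp1 went with lower Nanog at E13.5, while Pou5f1 and Sox2 differed less. At E13.5, Nanog was at 18.4 CPM in the 625 cells with a Nanos2 UMI and 26.5 CPM in the 1698 cells without one, a ratio of 0.695 (0.583 to 0.825). In the same cells Pou5f1 was at 697 and 706 CPM (ratio 0.988, 0.959 to 1.02) and Sox2 at 105 and 102 CPM (1.03, 0.951 to 1.11). The cluster with most Nanos2 had low cycle sums, so the split was repeated by G2/M sum. The cut was the median of that sum over the thinned cells of both libraries together. At E13.5 the Nanog ratio was 0.660 (0.484 to 0.884) in cells above it and 0.796 (0.635 to 0.993) in the other cells. For Sox2 these sets gave 0.884 (0.772 to 1.01) and 1.21 (1.10 to 1.33), on opposite sides of 1. At E12.5 only 11 thinned cells held a Nanos2 UMI.

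Sycp1, a protein of the synaptonemal complex that joins chromosomes in meiosis, gave a like split at E13.5. Nanog was at 22.5 CPM in the 1833 cells with a Sycp1 UMI and 31.4 CPM in the 490 cells without one, a ratio of 0.716 (0.613 to 0.838), while at E12.5 the ratio was 0.926 (0.806 to 1.06). Pou5f1 was at 0.936 times its level in the cells without at E13.5 (0.908 to 0.966), and Sox2 at 1.02 times (0.939 to 1.11). Rhox9, an X-linked homeobox gene of early germ cells, went the other way at E13.5. There Nanog was at 27.9 CPM in the 750 cells with and 22.7 CPM in the 1573 cells without a Rhox9 UMI, a ratio of 1.23 (1.06 to 1.42), and Pou5f1 had a ratio of 1.06 (1.03 to 1.09). A cell without a UMI may still express the gene, and free RNA can give a UMI to a cell that does not.

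Splits by Kit, Stra8 and Pmaip1 left Nanog within its counting error. The receptor gene Kit gave Nanog ratios of 1.09 (0.927 to 1.29) at E13.5 and 1.09 (0.964 to 1.23) at E12.5. Pmaip1, which encodes the cell death protein NOXA, gave 0.945 (0.820 to 1.09) and 0.942 (0.767 to 1.15), and for Pou5f1 0.966 (0.941 to 0.991) and 0.928 (0.882 to 0.976). Stra8, a gene of meiotic entry, was found in 54 thinned cells at E13.5 and 97 at E12.5, and gave Nanog ratios of 1.21 (0.764 to 1.83) and 0.917 (0.657 to 1.25).

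Technical measures moved with the factors as well. In the 25% of cells with the highest mitochondrial share Nanog was at 0.693 times its level in the lowest 25% at E13.5 (0.565 to 0.849) and at 0.838 times at E12.5 (0.706 to 0.996), and the median mitochondrial share of germ-like cells was 4.68% at E13.5 and 3.86% at E12.5. Between the deepest and the shallowest 25% of cells, without thinning, the Nanog ratio was 0.991 (0.846 to 1.16) at E13.5 and 0.845 (0.743 to 0.962) at E12.5. Sox2 had depth ratios of 0.945 (0.875 to 1.02) at E13.5 and 0.849 (0.793 to 0.908) at E12.5, and Pou5f1 of 0.987 (0.959 to 1.02) and 1.05 (1.02 to 1.09). With mitochondrial share Pou5f1 had ratios of 0.934 (0.901 to 0.968) at E13.5 and 0.924 (0.885 to 0.964) at E12.5, and Sox2 of 1.05 (0.958 to 1.16) and 0.999 (0.916 to 1.09). The part of either measure in the results was not tested.

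**Figure D4:**
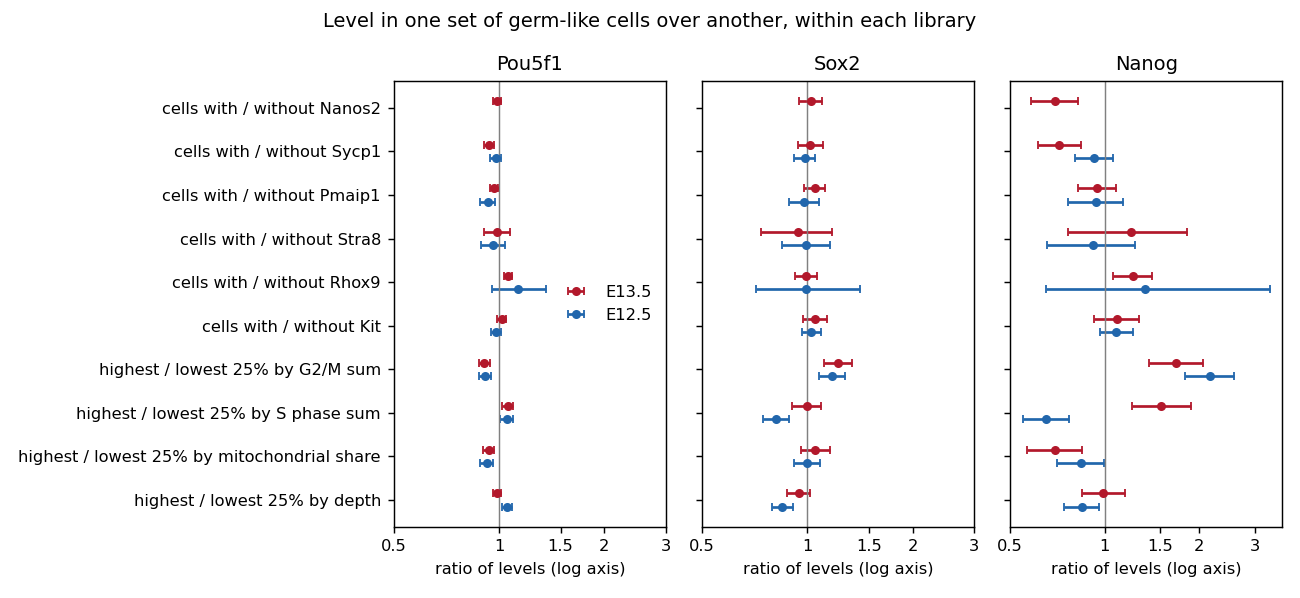
Ratio of the level in 1 set of thinned germ-like cells over another within the same library (log axis), E13.5 in red above E12.5 in blue, with exact 95% intervals of counting error; the depth sets are not thinned and Nanos2 is shown at E13.5 only. Nanog departs from 1 with the G2/M sum in both libraries (1.68 and 2.16) and with Nanos2 and Sycp1 at E13.5, while Pou5f1 stays close to 1.

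The genes most like each factor were ranked by the lower of their r values in the libraries, over 6407 genes at 10 CPM or more in both. For Nanog they included Ccnb1 (cyclin B1, r of 0.102 at E13.5 and 0.162 at E12.5), Dppa5a, Trp53 and Ube2c. For Sox2 they were Kif20b (0.094 at E13.5 and 0.095 at E12.5), Cenpf, Malat1, Incenp and Kif23, of which Cenpf and Kif23 are in the G2/M list, as Ccnb1 and Ube2c are. For Pou5f1 they were Rhox9 (0.105 at E13.5 and 0.116 at E12.5), Dppa5a (0.131 and 0.101), Ckb, Slc25a5 and Arpc1b. Within the E13.5 library, the highest r of Nanog was that with Lefty1, an antagonist of Nodal signalling, at 0.155, a gene named after its value was seen. All of these values are small, and they describe cells of 1 library each.

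Other factors of the pluripotency network were spread to both sides. Of 26 listed network factors, 20 reached 10 CPM in at least 1 library, and of these 2 were at least 1.5-fold higher at E13.5 and 5 at least 1.5-fold lower, where 8.61% and 9.93% of all 7308 genes were. Their median log2 ratio was -0.30, beside -0.022 for all genes. The higher ones were Otx2, a homeobox factor of the early epiblast, at 31.5 CPM at E13.5 and 9.76 CPM at E12.5 (3.23-fold, 2.94 to 3.55), and Sall1, a zinc finger factor, at 12.6 and 6.26 CPM (2.01-fold, 1.78 to 2.29).

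The lower ones included regulators of early germ cells. Tfap2c, an AP-2 factor of germ cell specification, was at 10.7 CPM at E13.5 and 35.2 CPM at E12.5 (ratio 0.305, 0.278 to 0.333). Zfp42, also known as Rex1, was at 39.5 and 79.9 CPM (0.494, 0.470 to 0.520). Tcf7l1, a repressor of pluripotency genes in the Wnt pathway, was at 8.40 and 16.6 CPM (0.507, 0.454 to 0.565). The remaining 2, named after their values were seen, were the orphan nuclear receptor gene Esrrb (0.577) and Prdm14 (0.644), a factor of germ cell specification. Rest, a repressor with the highest level of the list in a single library, at E12.5, had a ratio of 0.769. Tcf3, which is listed as a gene apart from Tcf7l1, had a ratio of 1.15.

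Genes with known OCT4 and SOX2 sites or NANOG sites in embryonic stem cells lay on both sides of the median. Of 24 listed, 21 were at the minimum level, 2 at least 1.5-fold higher, 5 at least 1.5-fold lower and 14 between, where 8.61% and 9.93% of all genes were that much higher and lower, and the median log2 ratio was 0.0016. The higher ones were Dppa3, a protector of DNA methylation in the early embryo, at 3009 CPM at E13.5 and 1850 CPM at E12.5 (1.63-fold, 1.61 to 1.64), and Lefty1, at 152 and 93.2 CPM (1.63-fold, 1.58 to 1.69). Its paralog Lefty2 went the other way, at 95.4 CPM at E13.5 and 236 CPM at E12.5 (0.404, 0.392 to 0.417). How reads that match both copies were counted is not stated in the labels. The RNA-binding protein gene L1td1 was at 68.4 and 215 CPM (0.317, 0.306 to 0.329), and Id3, an inhibitor of helix-loop-helix factors, at 75.2 and 197 CPM (0.382, 0.369 to 0.396). Spp1 (0.412) and Nodal (0.581), named after their values were seen, completed the 5.

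Transcripts of proteins that work with the factors had a median near that of all genes. Of 22 listed partner genes, 21 were at the minimum level, 1 was at least 1.5-fold higher, none was as much lower, and the median log2 ratio was -0.033 (all genes: 8.61% higher, 9.93% lower, median -0.022). The higher one was Ogt, which encodes the transferase of O-linked N-acetylglucosamine, at 83.9 CPM at E13.5 and 39.7 CPM at E12.5 (2.11-fold, 2.01 to 2.22). The lowest were the histone deacetylase gene Hdac1 (0.710), Parp1 (0.765), which had the highest level of the list in a single library, at E12.5, and Mbd3 (0.777), a subunit of the NuRD complex. Ctbp1, a corepressor gene, had a ratio of 1.41 and Hdac2 of 1.21.

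**Figure D5:**
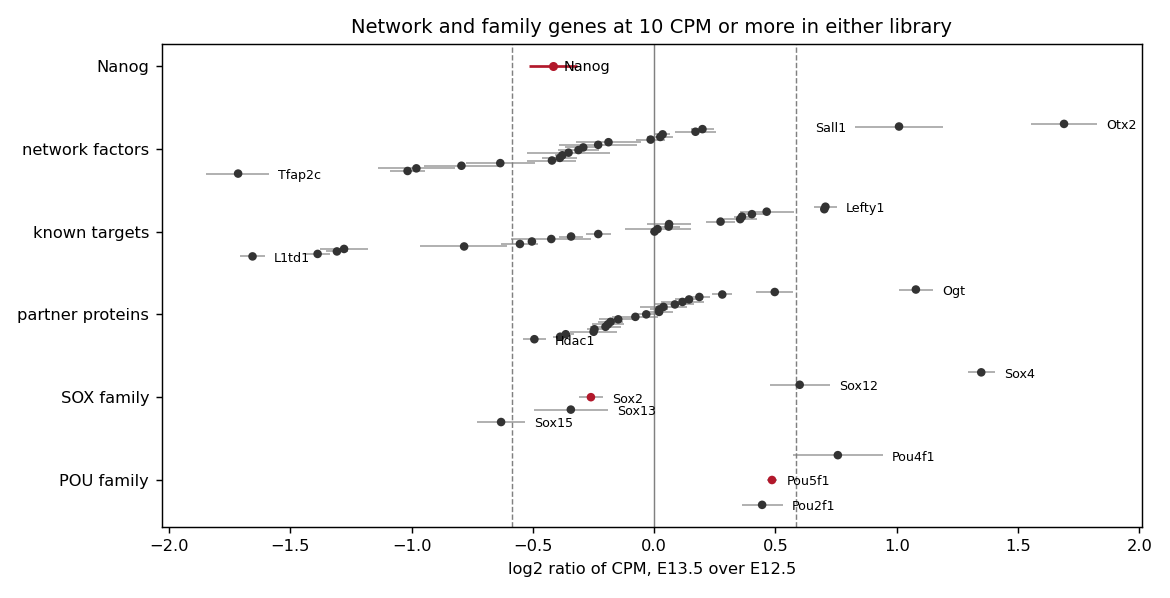
Log2 ratio of CPM, E13.5 over E12.5, for Nanog and for list genes that reached 10 CPM in at least 1 library, with exact 95% intervals of counting error; Pou5f1, Sox2 and Nanog are in red and dashed lines mark 1.5-fold. All 3 factors lie between the dashed lines, and the network factors and known targets reach past both lines.

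Few genes of the SOX and POU families reached the minimum level. Of 16 SOX genes listed, 5 were at 10 CPM or more. Sox4, of the SOXC group, was at 158 CPM at E13.5 and 62.0 CPM at E12.5 (2.55-fold, 2.45 to 2.65), so that it was above Sox2 at E13.5 and below it at E12.5. Sox12 was at 22.5 and 14.8 CPM (1.52-fold, 1.39 to 1.65), Sox13 at a ratio of 0.788 (0.709 to 0.876), and Sox15 at 23.5 and 36.4 CPM (0.646, 0.603 to 0.691). The family was thus divided, with 2 genes at least 1.5-fold higher and 1 at least 1.5-fold lower, beside 8.61% and 9.93% of all genes. Of 12 POU genes listed, 3 were at the minimum level: Pou5f1, Pou2f1, which encodes the widely expressed OCT1, at 45.8 and 33.6 CPM (1.36-fold, 1.28 to 1.44), and Pou4f1 at 11.0 and 6.53 CPM (1.69-fold, 1.49 to 1.92). UMI counts of transcript ends do not scale with transcript length, but capture can differ between genes.

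Genes beside the 3 factors on their chromosomes differed in both directions. Tcf19, 1962 bases from Pou5f1 on the other strand, was at 8.38 CPM at E13.5 and 16.1 CPM at E12.5 (0.519, 0.465 to 0.579), and Psors1c2, 22429 bases away, at 7.59 and 21.4 CPM (0.355, 0.318 to 0.396), while Pou5f1 itself was higher. Cchcr1, between them and named after its value was seen, had a ratio of 0.658. Beside Nanog, the glucose transporter gene Slc2a3, 13176 bases away, had 879 UMIs at E13.5 and 1471 UMIs at E12.5 (0.609, 0.559 to 0.662). Dppa3, 77217 bases from Nanog, was 1.63-fold higher as given above, and Gdf3, 97402 bases from Nanog, was at 66.8 and 52.2 CPM (1.28-fold, 1.22 to 1.34). Of the 13 neighbour genes listed, 8 were at the minimum level, 1 was at least 1.5-fold higher and 4 at least 1.5-fold lower, beside 8.61% and 9.93% of all genes. Atp11b (0.880), counted with the neighbours of Sox2, lies more than 100000 bases from it.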

How the data were processed

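Single-cell RNA-seq of 2 libraries was used. The deposited values are raw UMI counts for each gene and barcode, not normalised. Per the submitters' processing notes, Cell Ranger was used with mm10 (GRCm38). Neither the annotation nor the use of strand is given in the sources used here. Barcodes with at least 500 genes and less than 10% mitochondrial UMIs were log-normalised to 10000 UMIs and clustered jointly without integration in scanpy 1.11.5 with leidenalg 0.10.2 (resolution 0.5, 15 neighbours, 30 principal components of 2000 variable genes). Clusters were named from marker lists without the 3 factors. In germ-like clusters, 1 barcode at E13.5 and 3 at E12.5 with 0.5% or more UMIs of macrophage or of red blood cell markers were left out. No other marker list was used for this. Scrublet called 26 doublets at E13.5 and 61 at E12.5, which were kept. Counts were summed per library and given as CPM; ratios needed 3 UMIs in each library. Intervals are exact (Poisson for levels, conditional binomial for ratios, binomial for shares) and cover counting error only. Cells were thinned without replacement. The intervals and thinning were tested on simulated data. Named genes were the 3 factors, the 3 highest, 3 lowest and most abundant gene of each list, the 5 genes most like each factor (1 is not reported here), genes that define sets of cells, and neighbours. The members, lists and tests were chosen with earlier results of these data known. Alternatives are named in the closing section; one used TMM factors (edgeR 4.0.16). Promoters are from RefSeq (GRCm38.p6).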

Additional observations from a re-analysis of the deposited data

How the results depend on the processing

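The log2 ratios of the 3 factors kept their direction under 11 alternative settings, which gave 33 values over the 3 genes. Among them were TMM factors, another denominator, 3 other cell filters, no doublet calls, equal weight per cell and a rule of 3 germ markers. The others were clustering at resolution 1, clustering without the factors, and no shared barcodes. Clustering without the factors could change nothing, as none was a variable gene. At resolution 1 a cluster of 427 E13.5 barcodes led by haemoglobin genes stayed unnamed. The ranges were 0.48 to 0.53 for Pou5f1, -0.27 to -0.22 for Sox2 and -0.45 to -0.35 for Nanog. One of the 33 values left its counting interval, Pou5f1 at 0.53. There, ribosomal protein genes, mitochondrial genes and the 50 most abundant genes were left out of the total, which shifts all log2 ratios by 0.041. Shares of cells follow the depth and minimum by construction. Thinned to 2000 UMIs they were 74.4%, 18.8% and 4.94% at E13.5 and 62.5%, 21.2% and 6.20% at E12.5 for Pou5f1, Sox2 and Nanog. Not thinned, they were 84.5% and 40.8% at E13.5 and 89.0% and 50.4% at E12.5 for Sox2 and Nanog. With at least 2 UMIs they were 99.7%, 43.9% and 5.38% at E13.5 and 99.4%, 51.5% and 8.99% at E12.5. In each setting the order of the libraries was the same for each gene, though Pou5f1 shares near 100% hardly differed. Of 36 alternative values of r, over all pairs and both libraries, 2 moved by more than an interval over this number of cells. Both were for Pou5f1 and Sox2, 0.017 at E13.5 with another seed and 0.048 at E12.5 without thinning. The cause was not tested. Of 36 alternative values of the list counts and medians, over all lists, 17 differed, as fewer or more genes entered. Leaving out a replicate was not run, as each stage has 1 library. No paired analysis was possible because each stage has 1 library and the labels give no replicate numbers. Alternatives without shared barcodes, without naming of clusters and within ranges of the G2/M sum were chosen after seeing the data. Depth limits Nanog, at under 1 UMI per cell, more than Pou5f1.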
